A study of Mus musculus with 59 samples.

Results

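Transcripts of 6 inflammatory ligand genes were followed through 59 single cells of the mouse brain: the chemokine genes Ccl3, Ccl4 and Ccl2, the interleukin 1 genes Il1a and Il1b, and the tumour necrosis factor gene Tnf. These are 6 of the 20689 genes in the table and were picked by symbol because earlier looks at these same cells had shown some of them with a few very high values, so their levels and their correlations are given as a description, with no test. The question was which cells hold the extreme values, and whether these cells are also high in the microglia transcripts C1qa and Tyrobp or in the immediate early gene Fos.

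Each of the 59 samples is a single mouse cell, labelled as a chemical-induced neuron and aged 12 weeks per its label. The study concerns the chemical conversion of astrocytes to neurons in the living brain, and the labels state that the content of each patched cell was drawn into the recording pipette in vivo. All cells carry the same label, with no genotype, strain or animal named, so they count as 1 group and 1 sample. No cells labelled as untreated brain cells or as microglia were analysed here.

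CCL3, CCL4 and CCL2 are small secreted proteins that draw leukocytes along a gradient. They act through chemokine receptors on the target cell, among them CCR1 for CCL3 and CCR2 for CCL2. Interleukin 1 alpha and beta bind the same receptor, IL1R1, and tumour necrosis factor binds TNFR1 and TNFR2. In the brain these genes are known above all from microglia, the resident macrophages, and they are classical targets of the transcription factor NF-kB. C1qa encodes a chain of complement C1q and Tyrobp an adaptor of myeloid receptors, both standard microglia markers, while Fos encodes a subunit of the transcription factor AP-1 and is induced within minutes by neuronal activity and by many other stimuli.

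The genes lie on 3 mouse chromosomes (build GRCm38, GENCODE M21 annotation). Ccl2 (chr11:82035571-82037453, plus strand), Ccl3 (chr11:83647844-83649355, minus strand) and Ccl4 (chr11:83662584-83664683, plus strand) lie on chromosome 11, where Ccl3 and Ccl4 lie close together on opposite strands. Il1a (chr2:129299610-129309972) and Il1b (chr2:129364570-129371139) lie close together on the minus strand of chromosome 2, and Tnf (chr17:35199381-35202007) is on the minus strand of chromosome 17. The promoters of the 4 genes found in the RefSeq promoter table (GRCm38.p6, 250 bases before to 50 bases after the annotated start, minus strand in all 4, written 5′ to 3′) are shown because these genes were high in the same cells. They span chr11:83649329-83649628 for Ccl3, chr2:129309923-129310222 for Il1a, chr2:129371090-129371389 for Il1b and chr17:35201958-35202257 for Tnf. Capitals mark matches, on either strand, to the core promoter letters TATAAA, to the AP-1 letters TGANTCA, to the letters TGACG known from CREB and ATF factors, to the letters GAGGAA known from the myeloid factor PU.1 and to the NF-kB consensus.
Ccl3: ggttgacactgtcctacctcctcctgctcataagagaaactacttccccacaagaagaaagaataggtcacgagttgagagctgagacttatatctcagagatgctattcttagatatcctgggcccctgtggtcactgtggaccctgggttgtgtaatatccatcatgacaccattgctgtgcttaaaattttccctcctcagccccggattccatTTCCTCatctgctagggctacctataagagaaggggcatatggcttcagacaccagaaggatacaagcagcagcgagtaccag
Il1a: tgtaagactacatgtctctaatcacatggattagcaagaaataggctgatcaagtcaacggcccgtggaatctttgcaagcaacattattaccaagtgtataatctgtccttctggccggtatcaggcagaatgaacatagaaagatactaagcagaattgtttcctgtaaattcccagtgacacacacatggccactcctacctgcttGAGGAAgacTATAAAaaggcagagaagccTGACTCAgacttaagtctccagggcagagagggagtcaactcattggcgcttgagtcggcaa
Il1b: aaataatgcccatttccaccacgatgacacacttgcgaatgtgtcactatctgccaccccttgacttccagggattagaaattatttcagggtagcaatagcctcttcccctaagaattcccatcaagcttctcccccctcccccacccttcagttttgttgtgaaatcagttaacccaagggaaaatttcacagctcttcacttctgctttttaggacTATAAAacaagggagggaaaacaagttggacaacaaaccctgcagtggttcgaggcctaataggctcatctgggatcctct
Tnf: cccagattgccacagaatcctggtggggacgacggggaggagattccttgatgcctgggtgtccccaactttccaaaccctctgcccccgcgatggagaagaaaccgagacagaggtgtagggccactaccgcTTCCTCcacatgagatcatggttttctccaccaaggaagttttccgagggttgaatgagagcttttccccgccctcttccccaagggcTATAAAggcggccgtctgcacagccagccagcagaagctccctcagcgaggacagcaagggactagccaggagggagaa

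TATAAA began 32 bases before the start of Il1a, 31 bases before that of Il1b and 29 bases before that of Tnf, a sequence held by 13.6% of the 32851 promoters in the table. The AP-1 letters were found in 1 of the 4, Il1a, 12 bases before the start (7.81% of all promoters). GAGGAA lay 41 bases before the start of Il1a and, on the reverse strand, 33 bases before that of Ccl3 and 117 bases before that of Tnf (28.3% of all promoters). Neither the NF-kB consensus (8.46% of all promoters) nor TGACG (20.8%) matched in these 4 windows, which says only that those letters are not there. No match overlapped another.

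Sequencing depth differed widely between cells, with a median of 912996 fragments and a range of 29043 to 2950401, and a median of 3984 genes at an FPKM of 1 or more (475 to 10310). FPKM are fragments per kilobase of exon, scaled to library size, and a gene was counted as detected at an FPKM of 1 or more. Markers of several cell types occurred together: 45 of 59 cells had at least 50% of the 15 neuronal list genes and 25 had at least 50% of the 16 microglia list genes. Cell 21 stood apart from all others in the genes described here, and results that rest on it are given with and without it.

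Ccl4 and Ccl3 were the most widely detected of the 6 genes and reached the highest levels. Ccl4 was detected in 33 of 59 cells (55.9%, exact 95% binomial interval 42.4 to 68.8%), where its FPKM ran from 1.44 in the lowest cell through a median of 217 to 53145 in cell 21. Ccl3 followed with 28 cells (47.5%, interval 34.3 to 60.9%), a lowest value of 2.09, a median of 103 and a highest value of 37735 FPKM, again in cell 21. The levels of both genes thus spread over more than 4 orders of magnitude, and cell 21 lay far above every other cell. After cell 21 came cell 15 with 6308 FPKM and cell 27 with 4397 FPKM for Ccl4, and cell 15 with 3062 FPKM and cell 52 with 2331 FPKM for Ccl3. The highest value was 8.42 times the second for Ccl4 and 12.3 times for Ccl3.

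The remaining chemokine, Ccl2, which attracts monocytes, behaved differently at its upper end. Its 12 cells (20.3%, interval 11.0 to 32.8%) had a lowest value of 4.57, a median of 35.9 and a highest value of 301 FPKM. Its highest cell was cell 34, followed by cell 15 with 187 FPKM and cell 21 with 135 FPKM, so cell 21 was not its leading cell. No cell reached 1000 FPKM of Ccl2, against 10 cells for Ccl4 and 5 cells for Ccl3.

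Il1a was the more widely detected and the more abundant of the interleukin genes. It was detected in 23 cells (39.0%, interval 26.5 to 52.6%), from 1.19 FPKM through a median of 117 to 11666 FPKM in cell 21. Il1b, whose product needs cleavage by caspase-1 to become active, was detected in 9 cells (15.3%, interval 7.22 to 27.0%), from 1.21 through a median of 25.7 to 3134 FPKM, again in cell 21. All 9 cells with Il1b also had Il1a, and Il1a was the higher of the pair in 9 of 9, by a median log2 ratio of FPKM of 3.26 (range 0.72 to 5.65). The second highest cells were cell 49 for Il1a, with 2257 FPKM and no Il1b, and cell 15 for Il1b, with 160 FPKM.

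Tnf, which encodes a membrane-bound cytokine released by the protease ADAM17, had the most isolated maximum. Its 13 cells (22.0%, interval 12.3 to 34.7%) had a lowest value of 1.47, a median of 42.4 and a highest value of 16177 FPKM in cell 21. The next cells were cell 52 with 533 FPKM and cell 51 with 152 FPKM, and the highest value was 30.3 times the second.

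**Figure D1:**
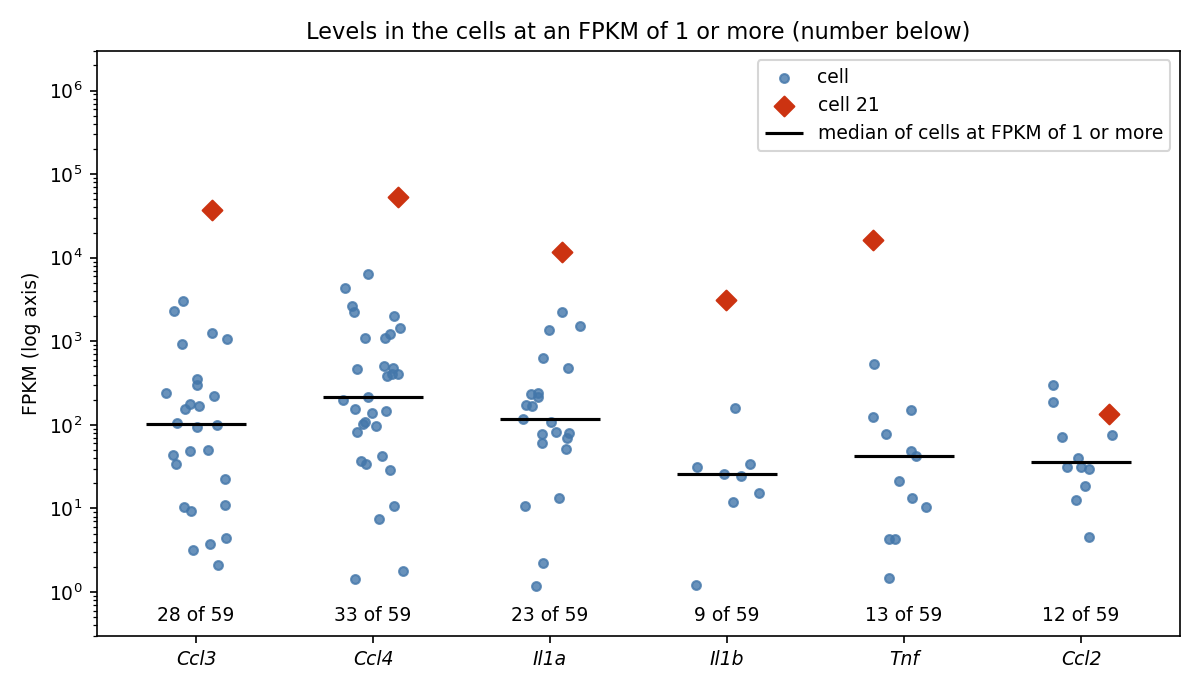
FPKM (log axis) of each of the 6 genes in every cell where it was detected, with the number of such cells below each column. Bars are medians of the detected cells, and the red diamond is cell 21, which is highest for Ccl3 (37735), Ccl4 (53145), Il1a (11666), Il1b (3134) and Tnf (16177) but not for Ccl2 (135).

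By share of cells the order was Ccl4, Ccl3, Il1a, Tnf, Ccl2, Il1b. The counting intervals of neighbours in this order overlapped, and those of Ccl4 did not overlap with those of Tnf, Ccl2 or Il1b. Detection in at least 12 cells was met by 5 of these 6 genes and by 38.9% of all genes. An FPKM of 1000 or more in at least 1 cell was reached by 5 of the 6 genes and by 2.08% of all genes, and 10000 or more by 4 of the 6 (Ccl3, Ccl4, Il1a and Tnf) and by 0.131% of all genes. Since high values in a few cells were the reason for choosing these genes, these shares describe the choice.

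Most detected values rested on more than a few fragments. Fragment numbers, recovered from FPKM and exon length, had medians over the cells with any fragment of 123 for Ccl4, 60.5 for Ccl3, 271 for Il1a, 24 for Il1b, 23 for Tnf and 61 for Ccl2. Among those cells, at most 3 fragments were present in 7 cells for Ccl3, 5 for Tnf, 3 each for Ccl4 and Il1a and 1 for Il1b. Where a gene was at 0, 3 fragments would have given a median of 6.88 FPKM for Ccl4, 4.29 for Ccl3, 2.31 for Il1a, 1.74 for Il1b, 2.22 for Tnf and 2.94 for Ccl2. Absence was therefore defined well below the typical detected level in most cells. In cell 20, the shallowest with 29043 fragments, that limit was 157 FPKM for Ccl4 and 135 FPKM for Ccl3, so a typical level of Ccl3 would not have been detectable there. Among cells at 0, the limit exceeded the median detected level in 3 cells for Ccl2 and 2 for Il1b. It did so in 1 cell each for Ccl3 and Tnf and in 0 for Ccl4 and Il1a.

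The expression of each gene was concentrated in few cells. The 5 highest cells held 93.6% of the summed FPKM of Ccl3, 86.3% of that of Ccl4, 88.9% for Il1a, 98.5% for Il1b, 99.1% for Tnf and 82.1% for Ccl2, where the median of 8042 genes detected in at least 12 cells was 59.5%. At least 75% of the sum lay in 5 cells for 16.2% of those genes and for all 5 of the genes described here that passed that filter. Without cell 21, the 5 highest cells held 80.0% for Ccl3, 66.5% for Ccl4, 78.6% for Il1a, 90.7% for Il1b, 90.5% for Tnf and 84.1% for Ccl2.

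Cell 21 was among the best covered cells, with 2934693 fragments (rank 2 of 59) and 7219 detected genes (rank 8). Ccl4 and Ccl3 were its most and second most abundant transcripts by FPKM, Tnf was the fifth, Il1a the sixth and Il1b ranked 28, while Ccl2 ranked 369. These values rested on 102937 fragments of Ccl4, 84828 of Ccl3, 77813 of Tnf, 67582 of Il1a, 17538 of Il1b and 451 of Ccl2, so counting error in this cell was small. The 6 genes together made up 21.7% of its gene FPKM, against 2.17% in cell 15, 1.33% in cell 52 and a median of 0.0196% over all cells. The highest value over the 59 cells lay in cell 21 for 5 of the 6 genes and for 2.61% of all genes detected anywhere.

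The same cell was the highest of all 59 for C1qa (7354 FPKM), C1qb (8628 FPKM) and Tyrobp (5977 FPKM), and it had 16 of 16 microglia list genes. Its homeostatic microglia markers were not the highest: P2ry12, a purinergic receptor, had 19.4 FPKM (rank 14) and Tmem119 had 34.6 FPKM (rank 8). Neuronal transcripts were scarce there, with 5 of 15 neuronal list genes, 1.20 FPKM of the synaptic gene Snap25 and none of Rbfox3, the gene of the neuronal marker NeuN. Its Fos level was low for these cells, at 69.8 FPKM (rank 53, 482 fragments), against a median of 1160 FPKM over the 59 cells. All 10 oligodendrocyte list genes were also detected, with 62.3 FPKM of the myelin gene Mbp. Of 5 measured border macrophage genes it had 1, Pf4 at 44.0 FPKM. By these markers the label of chemical-induced neuron was not matched in cell 21.

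Several further inflammatory genes were high in cell 21, chosen for mention after their values were seen. Il12b, a subunit of interleukins 12 and 23, had 5171 FPKM and was detected in 3 cells in all. Ifnb1, encoding interferon beta, had 373 FPKM and Il6 had 201 FPKM, each detected in this cell alone. The chemokine genes Ccl5 (3980 FPKM), Cxcl2 (3891 FPKM) and Cxcl10 (3500 FPKM) were detected in 13, 8 and 6 cells. Of the lists of related genes, 8 of 19 other chemokines, 5 of 16 other cytokines, 6 of 12 NF-kB target genes and 6 of 19 NF-kB pathway genes had their highest value in cell 21, as did 9 of 16 microglia genes, 0 of 16 immediate early genes and 0 of 15 neuronal genes.

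Cells 15, 49, 52 and 28 held markers of several cell types but ranked higher for the mean of the microglia list than of the neuronal list. These ranks were 4 and 40 in cell 15, 2 and 26 in cell 49, 7 and 42 in cell 52, and 3 and 43 in cell 28. Cell 15, second for Ccl3, Ccl4, Il1b and Ccl2, had 4963 FPKM of C1qa, 1369 FPKM of Fos and 12 of 15 neuronal list genes. Cell 49, second for Il1a, had 2779 FPKM of C1qa and 76.7 FPKM of Fos, with 356 FPKM of Ccl3 and 473 FPKM of Ccl4 but no Il1b, Tnf or Ccl2. Cell 52, second for Tnf, ranked 7 for the mean of the microglia list. Cell 28 had all 6 genes in a library of 93042 fragments and ranked 3 for the microglia list.

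**Figure D2:**
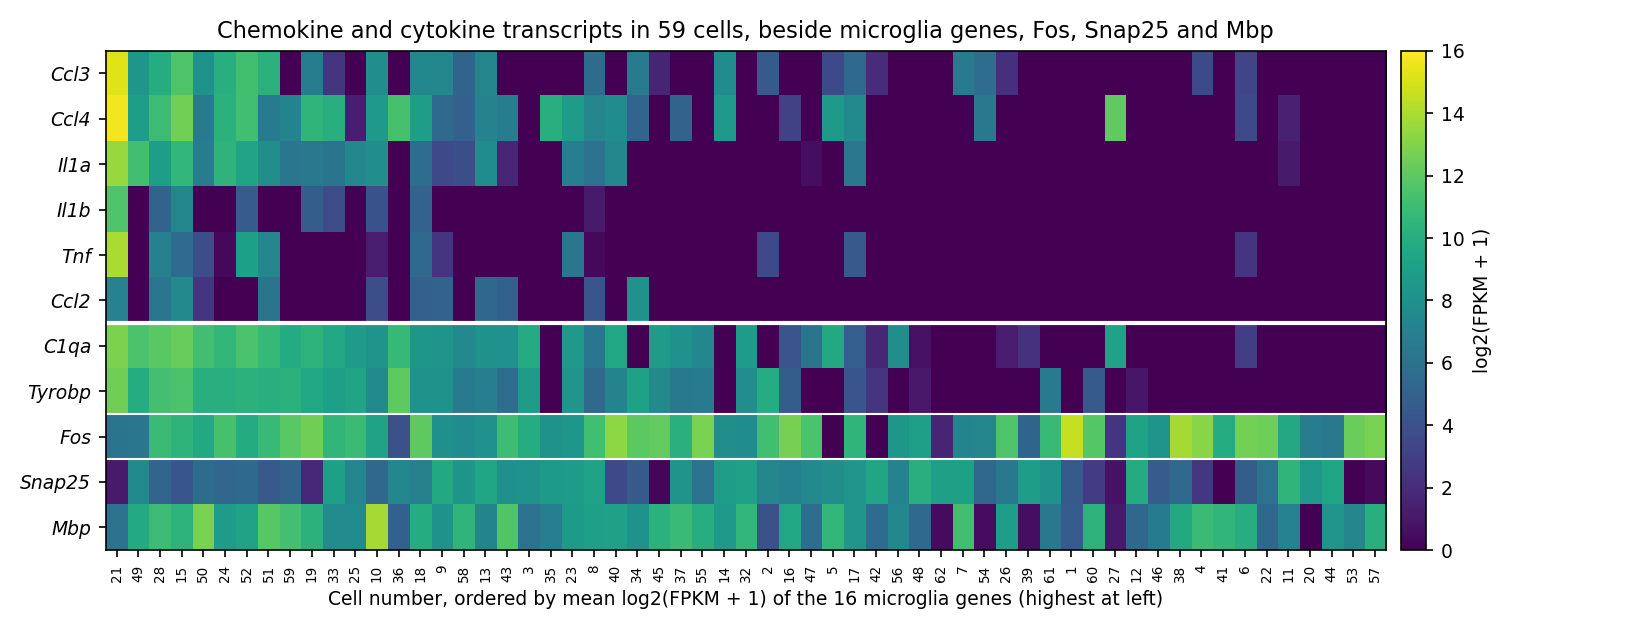
Colour gives log2(FPKM + 1) of the 6 genes, of the microglia genes C1qa and Tyrobp, of Fos, of the neuronal gene Snap25 and of the myelin gene Mbp in 59 cells, ordered by the mean of 16 microglia genes with the highest at left. Signal of the 6 genes gathers at the left with C1qa and Tyrobp, while Fos is bright across the whole width; cell 27, near the right, has 4397 FPKM of Ccl4.

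The 6 genes overlapped in the cells that had them. No gene of the 6 was detected in 20 cells, 1 gene in 10, 2 in 8, 3 in 7, 4 in 4, 5 in 5 and all 6 in 5 cells (cells 10, 15, 18, 21 and 28). At least 1 was thus found in 39 cells (66.1%, interval 52.6 to 77.9%) and at least 3 in 21 cells (35.6%, interval 23.6 to 49.1%). The rarer genes sat inside the range of the common ones: all 23 cells with Il1a had Ccl4, all 9 cells with Il1b had Ccl3, Ccl4 and Il1a, and all 12 cells with Ccl2 had Ccl4. Tnf was accompanied by Ccl3 in 12 of 13 cells and by Ccl4 in 12 of 13. Ccl3 and Ccl4 were detected together in 22 cells.

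Spearman rho between the genes over the 59 cells ranged from 0.43 for Ccl4 with Ccl2 to 0.69 for Ccl4 with Il1a, with a median over the 15 pairs of 0.57 (0.53 without cell 21). All cells come from 1 sample and many share a value of 0. The number of genes detected also moved with the 6 genes, with rho of 0.29 to 0.50 for each of them, and with it taken out by partial rank correlation the median of pairs was 0.51.

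Ccl3 and Ccl4 did not keep a fixed ratio. In the 22 cells with both, Ccl4 had the higher FPKM in 15, and the median log2 ratio of Ccl4 to Ccl3 was 0.60 with an SD of 2.43 over cells. The ratio ran from -3.69 in cell 51 to 7.95 in cell 33. Ccl4 was found with none of the other 5 genes in 5 cells, at 4397 FPKM in cell 27, 2639 FPKM in cell 36, 1081 FPKM in cell 35, 33.7 FPKM in cell 37 and 7.55 FPKM in cell 16. Cell 27 had the fewest genes of all, 475, and 34.7% of its FPKM in spike-ins, yet the Ccl4 value rested on 588 fragments. C1qa, at 617 FPKM, was the only 1 of the 16 microglia list genes detected there. C1qb, C1qc and Tyrobp were at 0 in cell 27, and it ranked 47 of 59 for the mean of the microglia list. Cell 36 had 1649 FPKM of C1qa and 4171 FPKM of Tyrobp. In cell 35, C1qa and Tyrobp were at 0 while C1qb had 220 FPKM and C1qc 347 FPKM, and 15 of 15 neuronal list genes were detected.

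Microglia transcripts were found in nearly every cell with any of the 6 genes, and in most cells of the whole set. C1qa was detected in 37 cells (62.7%) and Tyrobp in 35 (59.3%). C1qa was present in 28 of 33 cells with Ccl4, 22 of 28 with Ccl3, 22 of 23 with Il1a, 9 of 9 with Il1b, 12 of 13 with Tnf and 11 of 12 with Ccl2. At least 1 of C1qa, C1qb, C1qc and Tyrobp was detected in 48 of the 59 cells. Of these 48 cells, 11 had none of the 6 genes. Of the 39 cells with any of the 6 genes, 2 had none of C1qa, C1qb, C1qc and Tyrobp. Both held traces: cell 4 had 11.0 FPKM of Ccl3 from 2 fragments, and cell 11 had 1.79 FPKM of Ccl4 from 1 fragment and 1.19 FPKM of Il1a from 2 fragments.

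The reverse did not hold to the same degree. Among the 37 cells with C1qa, 9 lacked Ccl4, 15 lacked Ccl3, 15 lacked Il1a, 25 lacked Tnf, 26 lacked Ccl2 and 28 lacked Il1b. Of the 25 cells with at least 50% of the microglia list genes, 24 had at least 1 of the 6 genes. The exception was cell 3, with 920 FPKM of C1qa, 467 FPKM of Tyrobp and 8 of 16 microglia list genes. Fos, by comparison, was detected in 57 of 59 cells (96.6%), including all 20 cells with none of the 6 genes, so its presence did not separate cells with and without them.

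The level of the 6 genes moved with the microglia list over the cells, and hardly with Fos. Over 59 cells, the mean log2(FPKM + 1) of the 6 genes had a Spearman rho of 0.80 with the mean of the 16 microglia genes and of -0.07 with Fos (0.79 and -0.03 without cell 21). With C1qa alone it was 0.68 and with Tyrobp alone 0.66. Gene by gene, rho with the microglia list was 0.77 for Il1a, 0.72 for Ccl4, 0.61 for Ccl3, 0.52 for Il1b and for Ccl2, and 0.50 for Tnf, while rho with Fos lay between -0.16 for Ccl4 and 0.06 for Il1b. Of the 8042 genes found in 12 or more cells, rho with the microglia list was 0.5 or more for 2.76% and for 4 of the 5 described here, and rho with Fos was 0.5 or more for 1.49% and for 0 of the 5.

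The number of genes detected moved with the 6 genes here too: their mean had a rho of 0.44 with it. With that number taken out by partial rank correlation, rho was 0.75 with the microglia list and -0.13 with Fos. The mean of the neuronal list had a rho of -0.02 with the 6 genes, the oligodendrocyte list 0.22, the astrocyte list 0.20 and the endothelial and mural list 0.19. Few markers of other macrophages and of blood cells could be judged. Of 7 border macrophage and 9 blood leukocyte genes listed, 5 and 4 were measured, and each was detected in at most 3 cells. Mrc1, Lyve1, Ccr2 and Ly6c2 were among those not measured. Border macrophage genes were detected in cells 15, 16, 21, 24, 34, 36, 47 and 56, with Ms4a7 at 195 FPKM in cell 36.

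**Figure D3:**
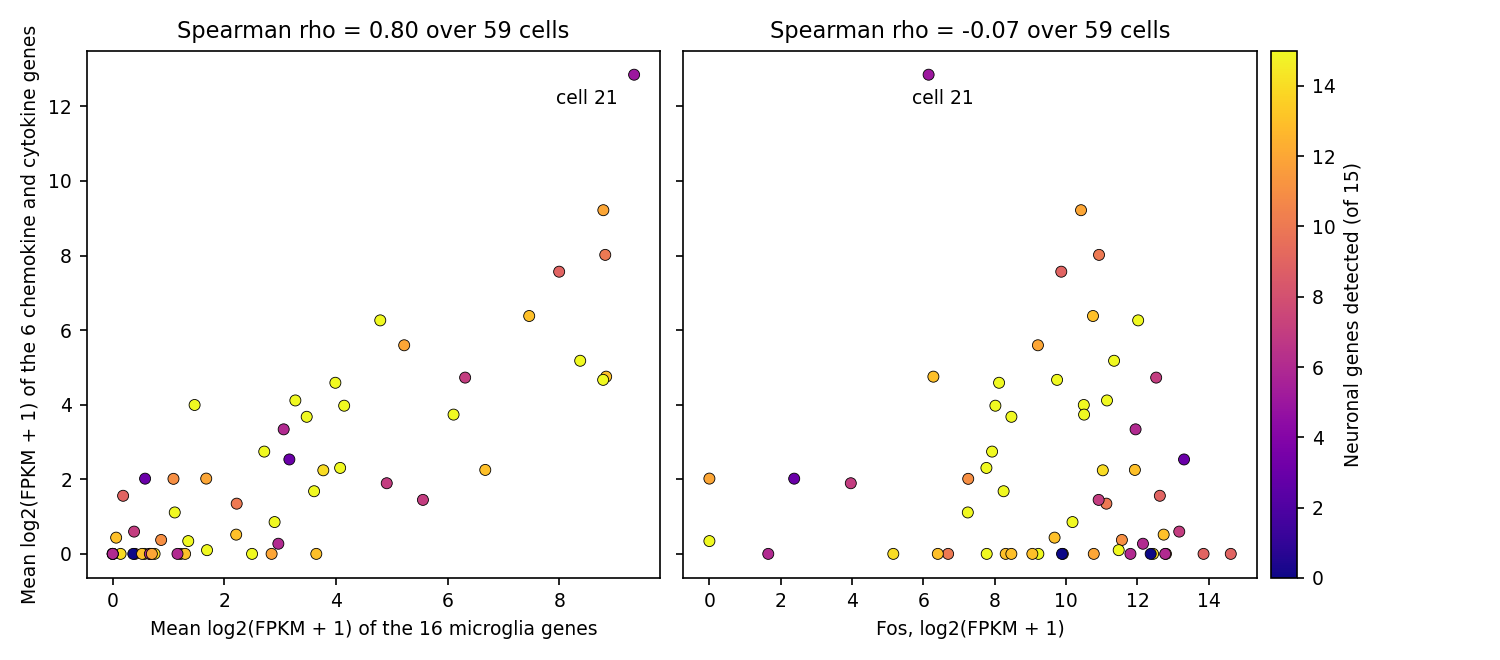
Each point is 1 of 59 cells, with the mean log2(FPKM + 1) of the 6 genes on the y axis against the mean of 16 microglia genes (left, Spearman rho 0.80) and against Fos (right, rho -0.07). Colour gives the number of neuronal list genes detected of 15; the top point, cell 21, is highest for the microglia list and ranks 53 for Fos.

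The cells with the extreme values were then compared directly. For each gene its 10 highest cells (9 for Il1b) were set against the 10 highest cells for the microglia list, which shared 8 for Ccl3, 7 for Il1a, 6 for Ccl4, 6 for Tnf, 4 for Ccl2 and 4 for Il1b. With the 10 highest cells for Fos, 1 was shared for Ccl4, Il1a and Il1b and 0 for Ccl3, Tnf and Ccl2. Unrelated lists of this size would share 1.69 cells on average (1.37 for Il1b). The 10 cells with the most genes detected shared 5 for Ccl2, 4 for Il1b, 3 for Tnf, 2 for Ccl4 and Il1a and 1 for Ccl3. For Ccl2 and Il1b this was at least as many as with the microglia list. Summed over the genes, 59.3% of the places were shared with the microglia list and 5.08% with Fos. In cells with at least 2000 genes these shares were 61.0% and 13.6%, and with the 5 highest cells in place of 10 they were 50.0% and 0%. The highest Fos cell, cell 1 with 25153 FPKM in a shallow library of 92393 fragments, had none of the 6 genes, nor had cell 38 with 14816 FPKM. Cell 40, with 10140 FPKM of Fos, had 217 FPKM of Ccl4 and 171 FPKM of Il1a.

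Relative to C1qa the levels of the 6 genes varied widely from cell to cell. Where both genes were detected, the log2 ratio of FPKM to C1qa had a median of -0.65 for Ccl4 (SD 2.42, n = 28 cells), -0.79 for Ccl3 (SD 2.67, n = 22), -2.16 for Il1a (SD 2.02, n = 22) and -3.27 for Tnf (SD 2.94, n = 12). For Ccl2 it was -4.57 (SD 1.89, n = 11) and for Il1b -5.66 (SD 1.81, n = 9), with a spread close to that of C1qb. For Tyrobp it was -0.70 with an SD of 0.84 (n = 30), for C1qb 0.22 with an SD of 1.75 (n = 33), and for C1qc -1.53 with an SD of 2.55 (n = 30), within the span of the chemokines. Fos had the widest spread, with an SD of 4.22 (n = 35). Cell 21 held the highest ratio for Ccl3 (2.36), Tnf (1.14) and Il1b (-1.23), so its levels of these genes were high even beside its C1qa. This did not extend to Ccl2, with 135 FPKM beside 7354 FPKM of C1qa in cell 21. The highest ratio for Ccl2 was in cell 8, at -2.03. For Ccl4 and Il1a the highest ratio was in cell 17, at 2.91 and 1.59.

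**Figure D4:**
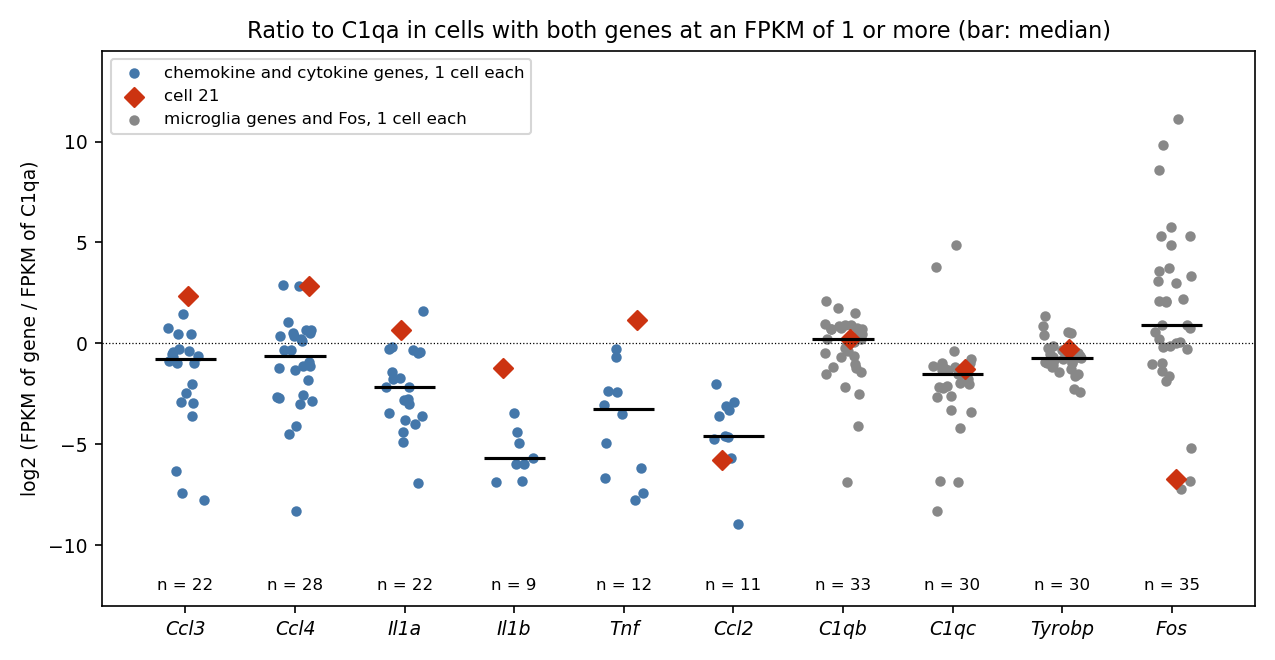
Log2 ratio of FPKM to that of C1qa in the cells where both genes were detected, for the 6 genes, C1qb, C1qc, Tyrobp and Fos, with cell 21 as diamonds. Tyrobp is the tightest (SD 0.84) and Fos the widest (SD 4.22), and cell 21 is the top point for Ccl3, Tnf and Il1b.

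Genes most like the 6 were ranked by Spearman rho over the 59 cells, among the 8042 genes detected in at least 12 of them. Closest to the mean of the 6 were Ctsh (rho 0.81), a lysosomal cathepsin, Cd14 (0.79), the co-receptor for bacterial lipopolysaccharide, Gpr84 (0.78), a fatty acid receptor, Fcer1g (0.75), an Fc receptor chain, and C1qb (0.75), followed by Ctss, Siglech, Laptm5, Ly86 and Rnaset2a (0.73 to 0.71). Among genes other than the 6 themselves, C1qa ranked 17, Tyrobp 29 and Fos 7812. A rho of 0.5 or more with the mean of the 6 was found for 2.39% of genes.

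For single genes the closest were in part different. Il1a had the strongest partners, with rho of 0.91 for Ctsh, 0.86 for Cd14 and 0.80 for the microglia marker Tmem119, and with Plek and Laptm5 between and below them (0.82 and 0.78). Ccl4 was closest to Ctsz (0.73), Fcer1g, Ctsh, Il1a and C1qa (0.70 to 0.69), and Ccl3 had among its closest Bcl2a1a, Gpr84, Anxa3 and Cd14 (0.70 to 0.67). Bcl2a1a belongs to a family of near-identical copies, so its reads may have been split. Tnf had among its closest Ctsc, Ccl9, Ccl3 and Cd14 (0.66 to 0.65). Ccl2 was closest to Slfn2 (0.72), then to Entpd1, Tubb6, Cd86 and Cd74 (0.65 to 0.62), the last 2 of which act in antigen presentation.

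Receptors of the 6 ligands were looked at next. Among 8 measured receptor genes, 2 were detected in at least 12 cells (3 at any FPKM above 0 and 1 at an FPKM of 5), where 38.9% of all genes were. The 2 were Il1rap, the accessory chain of the interleukin 1 receptor, in 23 cells, and the atypical chemokine receptor Ackr1 in 15. Tnfrsf1a, encoding TNFR1, was detected in 10 cells and Ccr1 in 4. The decoy receptor Il1r2 was detected in 1 cell, and Il1r1 in 0 of 59 cells, for which the exact interval reaches 6.06%. Below the threshold of 1 FPKM, Il1r1 had 0.88 FPKM in cell 49 and 0.21 FPKM in cell 21, so it was not wholly absent.

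Other chemokines and cytokines split by their relation to the 6 genes. Of 19 further chemokine genes, 6 were detected in at least 12 cells, and 3 of these had a rho of 0.5 or more with the mean of the 6: Ccl9 (0.62), Cxcl16 (0.61) and Ccl5 (0.53). The most widely detected, Cx3cl1 in 36 cells, Ccl27a in 32 and Cxcl14 in 22, had a rho below 0.1. Cx3cl1 encodes fractalkine, the neuronal ligand of the microglial receptor CX3CR1. Ccl22 was detected in 1 cell and Cxcl9 in 2. Of 16 further cytokine genes, Il33 was detected in 38 cells, Il18 in 21, Csf1 in 16 and Il34 in 11, and Lta and Ltb in 1 cell each.

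The genes that process these cytokines were found in part. Adam10 was detected in 28 cells, Pycard, the inflammasome adaptor, and Capn2 in 23 each, and Adam17 in 13. Capn1 was detected in 4 cells and Rhbdf2 in 3. The median rho with the mean of the 6 was 0.25 over the 4 genes detected in at least 12 cells, against 0.19 over all 8042 genes. Genes found in fewer cells were left out of this median. Among them rho was 0.62 for Nlrp3 and 0.60 for Casp4 (11 cells each), 0.47 for Casp1 (9 cells) and 0.41 for Gsdmd (5 cells). It was 0.43 for Rhbdf2, 0.22 for Capn1 and 0.16 for P2rx7 (7 cells).

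The NF-kB genes were compared in the same way. Of 19 pathway and feedback genes, 12 were detected in at least 12 cells, with a median rho of 0.35 (6 genes at an FPKM of 5, and 4 when 24 cells were asked for), and 3 had 0.5 or more: the inhibitor genes Nfkbib (0.59) and Nfkbia (0.54) and the subunit gene Rela (0.52). Nfkbia was detected in 46 cells, Zfp36, which destabilises cytokine mRNAs, in 39, Nfkbiz in 29, Relb in 7 and Nfkbie in 6. Of 12 NF-kB target genes, 6 were detected in at least 12 cells, with a median rho of 0.56, led by Cd83 (0.70), Plek (0.67) and Bcl2a1b (0.64). Sod2, the most widely detected target with 38 cells, had a rho of 0.15, while Clec4e and Nos2 were each detected in 1 cell. Many of these genes are also expressed by microglia, and the median rho of the 16 microglia genes was 0.67, with 15 of 16 at 0.5 or more.

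The immediate early list, with Fos among its genes, had low correlations with the 6 genes. Of its 16 genes, 15 were detected in at least 12 cells, as were 38.9% of all genes. Their median rho with the mean of the 6 was 0.10, against 0.19 over all 8042 genes so detected. A rho of 0.5 or more was reached by 0 of the 15 and by 2.39% of the 8042, so that count does not set the list apart. Egr1, Jun, Junb and Jund, the most widely detected after Fos, were found in 55, 53, 52 and 52 cells, with rho of -0.01, -0.02, 0.16 and 0.26. Fosl2 was detected in 17 cells and Egr3 in 7. The mean of the list had a rho of 0.19 with the 6 genes, and 0.22 without Fos.

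**Figure D5:**
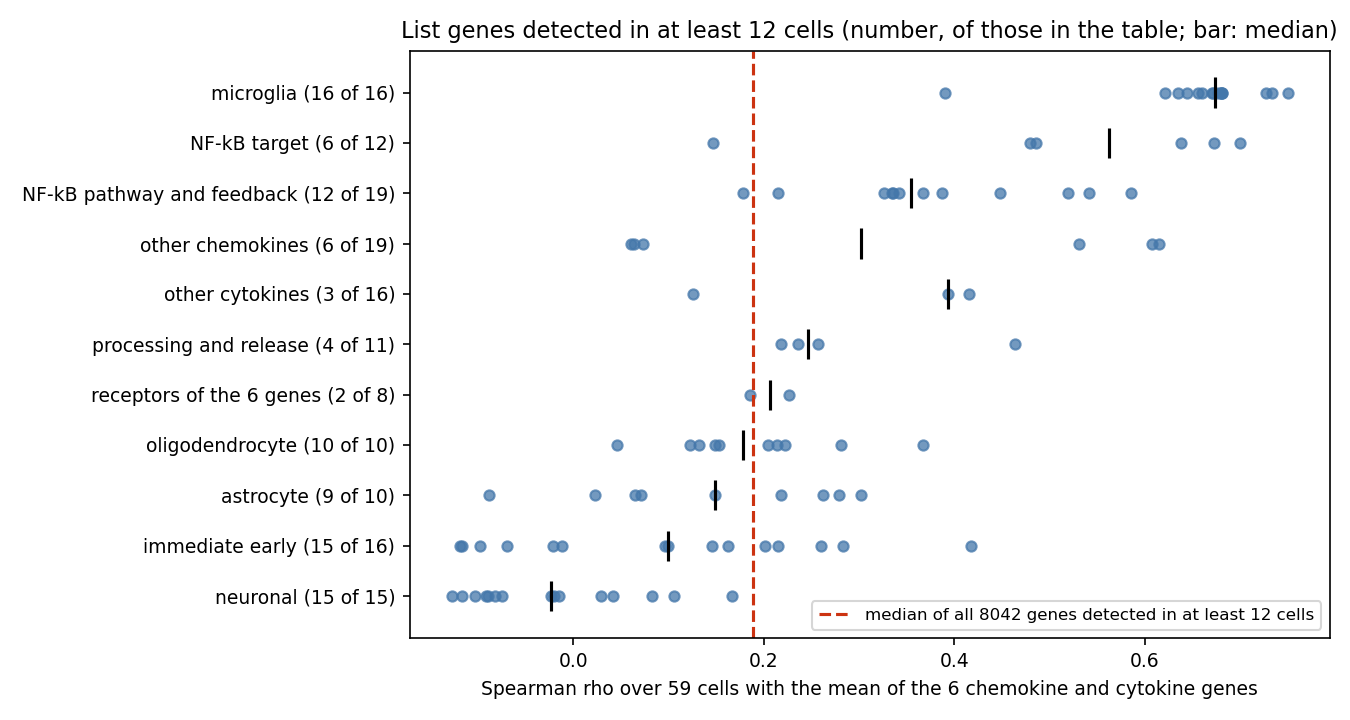
Spearman rho over 59 cells between each list gene detected in at least 12 cells and the mean of the 6 chemokine and cytokine genes, with list medians as bars. Microglia genes lie highest (median 0.67) and neuronal genes lowest (-0.02), against a dashed line at the median of 8042 genes (0.19).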

How the data were processed

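Single-cell RNA-seq of 59 cells was used, 1 library per cell. The authors deposited 1 table of FPKM values. The submitters' processing notes name STAR 2.5.3a, featureCounts 1.5.3 and GRCm38. How strand and multi-mapping were handled, and which annotation was used, is not given in the sources used here, so reads of near-identical, overlapping or antisense genes could be split in unknown ways.

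The 6 genes and the lists of related genes were chosen with earlier results of these data known. Detection was an FPKM of 1 or more, levels were log2(FPKM + 1), and list means were averages of these. Correlations are Spearman rho over cells, without p-values, because 1 group with no animal named gives 1 sample. Exact (Clopper-Pearson) 95% intervals cover counting error over cells only. The value of 1 fragment in each cell was recovered from the spacing of FPKM times exon length (GENCODE M21, available for 93.6% of genes); a median of 73.3% of values up to 20 fragments lay within 0.02 of a whole number (63.8 to 79.9% over cells). For genes at 0, the FPKM of 3 fragments is given as the limit; that limit and the intervals leave out amplification error, since no molecular identifiers were described. The scripts were tested on simulated data. The text names the 6 genes, C1qa, Tyrobp and Fos, the 4 most and 2 least detected genes of each list of related genes, the 5 genes most like each of the 6 (detected in at least 12 cells) and the 10 most like their mean; others were chosen after their values were seen. Some genes that this rule names are not reported here. Alternatives were other thresholds, pseudocounts, filters on cells and genes, rescaling, partial correlation, list medians and leaving out each cell. Python 3.11.15, numpy 2.4.6, pandas 2.3.3, SciPy 1.17.1 and matplotlib 3.10.9 were used.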

Additional observations from a re-analysis of the deposited data

How the results depend on the processing

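Of 286 values recomputed under alternatives for 37 results, 242 stayed within the reported value's tolerance (the 95% interval of a share, the SD over genes or pairs of a rho, 10 points of a concentration, 1.5 times a count), 44 moved and 0 reversed. Leaving out each cell in turn moved rho of the 6 genes with the microglia list between 0.79 and 0.82, that with Fos between -0.11 and -0.03, and the median of pairs between 0.53 and 0.58. At 10 fragments, Ccl3 was detected in 32.2% of cells. In cells with at least 2000 genes, rho of the 6 genes was -0.18 with the neuronal list, 0.15 with the oligodendrocyte list and 0.33 with genes detected. In cells with at least 500000 fragments it was -0.27 with Fos and 0.15 with the oligodendrocyte list, and the microglia list exceeded Fos by 1.13 (0.87 in all cells). A pseudocount of 0.1 gave 0.021 for the neuronal list, and cells with at least 500000 fragments gave 0.0016. As reported it was -0.023, and such changes of sign near 0 were not counted as reversed. A pseudocount of 10 gave -0.088 for the neuronal list, 0.12 for the astrocyte list, and 0.10 for the immediate early list (0.12 without Fos). With genes detected taken out, rho was -0.31 for the neuronal, 0.14 for the oligodendrocyte, 0.0083 for the astrocyte, 0.047 for the endothelial and mural list, and 0.024 for the immediate early list (0.048 without Fos). List medians gave 0.59 for the C1q genes, 0.16 for the oligodendrocyte and 0.28 for the astrocyte list. With the 5 highest cells in place of 10, 0% of places were shared with Fos, and in cells with at least 2000 genes 13.6% (5.08% as reported). Without cell 21, a choice made after its values were seen, the neuronal list had 0.023. Tyrobp alone in place of the microglia list gave 0.66, and the immediate early list in place of Fos gave 0.19 (0.22 without Fos). The causes of these shifts were not tested. No paired analysis was possible because the labels give 1 group only. Detection of weakly expressed genes is limited in shallow cells, and 59 cells of 1 sample give no measure of variation between animals.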

Other observations

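Among the immediate early genes, Atf3 had the highest rho with the 6 genes. It encodes a stress-induced transcription factor and was detected in 31 of 59 cells, with a rho of 0.42 with the mean of the 6 chemokine and cytokine genes, 0.28 with the microglia list and 0.53 with Fos. In cell 21 it had 293 FPKM (rank 10), against a highest value of 2385 FPKM in cell 4. Btg2 (rho 0.75 with Fos), Zfp36 (0.76) and Jun (0.79) moved with Fos, with rho of 0.15, 0.22 and -0.02 with the 6 genes. These genes were chosen after their values were seen.

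The median rho with Fos was 0.58 over the 10 oligodendrocyte genes and -0.33 over the 15 neuronal genes, where that of all 8042 genes detected in at least 12 cells was 0.02. For the 16 microglia genes it was -0.03.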
